A study of Homo sapiens with 2 samples.

Results

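The enzymes of fatty acid oxidation were compared between wild-type (WT) and PERK-knockout (PERK-KO) HEK293 cells, an established human embryonic kidney line. The 35 genes were a named list of acyl-CoA synthetases, carnitine palmitoyltransferases, acyl-CoA dehydrogenases, electron carriers, hydratases, thiolases and auxiliary enzymes, and each was found by its gene symbol in the tables of both samples. They are 35 of 23589 genes on the main chromosomes, and 34 of them were among the 14500 genes that reached 1 FPKM in either sample, which are the genes tested below. FPKM scales the fragments of a gene to its transcript length and to the size of the library. Both cultures had been kept for 12 h in OXPHOS medium, which holds galactose and pyruvate in place of glucose, and both were at passage 15 to 20. The PERK-KO cells had been made with CRISPR/Cas9 and single-cell cloning. PERK, encoded by EIF2AK3, is a kinase of the endoplasmic reticulum that phosphorylates the translation factor eIF2α. Which clone was sequenced was not given in the sources used here.

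Poly(A) RNA of 1 sample per genotype was sequenced, so no difference had a replicate check and no test between genotypes could be made. Each value is given with the lower and upper confidence limits that the authors deposited with it, which cover the estimate within 1 library and not the spread between cultures. A gene is called higher or lower here when its ratio passed 1.5-fold and the limits of the 2 samples were apart. In bulk RNA, fewer cells of a kind and less RNA per cell cannot be told apart. The targeted gene, EIF2AK3, was at 5.61 FPKM (limits 5.11 to 6.12) in WT and 3.89 (3.44 to 4.34) in PERK-KO cells, so its RNA was still present in the knockout library. Of 7 genes typical of HEK293 cells, 4 in WT and 6 in PERK-KO reached 1 FPKM, with summed levels of 1343 and 1083 FPKM, and PAX2 was below 1 FPKM in both. IRS4, an adaptor protein abundant in HEK293 cells, stood at 0.121 FPKM in the library labelled WT and at 27.1 in the library labelled PERK-KO, and NEFM stood at 0.662 and 5.21. KRT8, KRT18, VIM and NEFL went the other way, with limits apart. They stood at 640.5, 238.1, 418.1 and 44.85 FPKM in WT and 436.7, 201.9, 378.2 and 33.44 in PERK-KO. The library labelled WT thus goes against its cell line label for IRS4 and NEFM, but not for these 4 genes. Genotype, clone, culture and library cannot be told apart with 1 sample each. Of 7 genes of differentiated kidney, only NPHS1 reached 1 FPKM in either sample and 5 were at 0 in both. The same count was 1 of 5 for adipocyte genes (sums of 1.90 and 1.57 FPKM) and 0 for hepatocyte genes (0.0682 and 0.326) and blood genes (0.108 and 0.180).

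Fatty acids are activated to acyl-CoA by the ACSL synthetases, carried into mitochondria by the carnitine palmitoyltransferases, and shortened there by repeated rounds of dehydrogenation, hydration, a further dehydrogenation and thiolysis. The acyl-CoA dehydrogenases pass their electrons to the electron transfer flavoprotein, a dimer of ETFA and ETFB, and from there through ETFDH to ubiquinone. Peroxisomes hold a parallel set of enzymes for very long and branched chains. CPT1 is the step inhibited by malonyl-CoA and is regarded as the main control point of entry.

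The sequences before the transcription starts are shown for 6 genes. The study connected PERK with GABPα, an ETS factor whose core site is written CCGGAAG. ETFB, ECI1, CPT1A, HSD17B10 and ACADM were past 1.3-fold with limits apart, as was ACAA2, which is not shown. CPT2 was not past it and its window holds the site, so these 6 do not represent the list. RefSeq windows on GRCh38.p14, from 250 bases before to 50 bases after each start, existed for 28 of the 35 genes. Capitals mark CCGGAAG or its reverse complement, the sequence is the 250 bases before the start on the gene's own strand, and the genes without capitals held no copy there.
ETFB (minus strand, chr19:51366389-51366638): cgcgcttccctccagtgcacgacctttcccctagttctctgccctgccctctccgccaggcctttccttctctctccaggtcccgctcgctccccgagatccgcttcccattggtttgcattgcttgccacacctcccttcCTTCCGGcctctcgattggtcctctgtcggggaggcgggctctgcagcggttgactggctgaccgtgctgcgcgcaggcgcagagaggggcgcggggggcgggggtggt
ECI1 (minus strand, chr16:2251588-2251837): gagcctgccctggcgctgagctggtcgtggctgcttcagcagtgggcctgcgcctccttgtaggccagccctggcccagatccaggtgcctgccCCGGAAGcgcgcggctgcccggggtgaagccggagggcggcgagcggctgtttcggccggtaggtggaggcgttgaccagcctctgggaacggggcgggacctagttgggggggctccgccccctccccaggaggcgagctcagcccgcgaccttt
CPT2 (plus strand, chr1:53196574-53196823): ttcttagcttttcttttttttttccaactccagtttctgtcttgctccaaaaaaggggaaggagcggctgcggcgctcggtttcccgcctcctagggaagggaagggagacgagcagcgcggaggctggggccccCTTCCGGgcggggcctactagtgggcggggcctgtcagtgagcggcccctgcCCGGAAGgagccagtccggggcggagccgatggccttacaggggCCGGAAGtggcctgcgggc
CPT1A (minus strand, chr11:68844278-68844527): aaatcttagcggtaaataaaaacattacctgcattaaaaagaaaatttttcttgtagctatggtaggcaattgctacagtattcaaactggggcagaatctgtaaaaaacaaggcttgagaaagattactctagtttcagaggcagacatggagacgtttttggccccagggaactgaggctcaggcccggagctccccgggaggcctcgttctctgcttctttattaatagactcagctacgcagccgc
HSD17B10 (minus strand, chrX:53434371-53434620): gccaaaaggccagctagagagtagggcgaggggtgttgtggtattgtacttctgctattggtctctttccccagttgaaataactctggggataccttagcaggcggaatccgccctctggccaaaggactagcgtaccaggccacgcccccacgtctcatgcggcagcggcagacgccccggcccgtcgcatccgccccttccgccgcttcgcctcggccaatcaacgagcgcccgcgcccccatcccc
ACADM (plus strand, chr1:75724459-75724708): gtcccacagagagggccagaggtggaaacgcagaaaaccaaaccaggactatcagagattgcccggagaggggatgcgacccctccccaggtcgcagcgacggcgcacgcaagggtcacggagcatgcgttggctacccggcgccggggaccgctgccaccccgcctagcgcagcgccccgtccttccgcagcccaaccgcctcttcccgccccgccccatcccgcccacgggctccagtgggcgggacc

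Over both strands, CCGGAAG was present in the windows of 5 of the 28 genes (17.9%), against 3321 of all 27305 genes with a window (12.2%). ETFB carried it at position -109 from its upstream start and ECI1 at -156, while CPT2 carried 3 copies, at -115, -63 and -19. ACADL and ACAD10 carried it after the start, at +38 and +6. The log2 ratio of PERK-KO over WT was -0.59 for ETFB and -0.42 for ECI1, both with limits apart. It was 0.11 for CPT2, 0.23 for ACAD10 and 0.64 for ACADL, all with overlapping limits. A link between the site and the ratio was not tested. A second RefSeq start of ETFB lies downstream and its window held no copy. TGACGTCA, the cAMP response element and itself a palindrome, was found in 1 gene of the 28, ACOX3 (3.57%, against 2.25% of all genes). TCAAGGTCA, the core site of the estrogen-related receptors, was found in none of the 28 and in 0.432% of all genes. The search for the PPAR-RXR element also found none, with 0.0293% of all genes, as did that for the NRF1 site, with 1.52%. Each was searched as 1 consensus pattern without mismatches, and the PPAR-RXR pattern occurred in only 8 of the 27305 genes. Finding none of such rare patterns in 28 genes therefore cannot show that these genes lack the elements. The median GC content was 66.0% in the windows of the 28 genes and 58.7% in all windows. The CPT1A window shown was below both at 44.4%. The RefSeq starts were not matched to the starts of the quantified transcripts, so a window may belong to an alternative start, for CPT1A as well. CPT1B, ACAD11, ACAA1, DECR1, DECR2, ETFDH and EHHADH had no window.

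Of the 34 genes, ETFB alone passed the call, with a lower level in PERK-KO cells, and none was called higher. ETFB lost this call, and CPT1A and ACSL6 gained it, when the trend of the ratio with transcript length, described below, was subtracted. This is 2.94% called lower, beside 5.37% of all genes tested, and 0 called higher, beside 7.87%. At a threshold of 1.3-fold, 5 were lower (ETFB, HSD17B10, CPT1A, ECI1 and ACAA2), or 14.7% beside 11.0% of all genes, and ACADM alone was higher, or 2.94% beside 16.1%. With any size of difference, the limits were apart and lower for 8 genes, or 23.5% beside 18.7% of all genes, and apart and higher for 5, or 14.7% beside 26.1%. The limits of the other 21 genes overlapped, which is 61.8% of the list and 55.2% of all genes tested. The ratio was below 1 for 18 and above 1 for 16 genes, and the median log2 ratio was -0.02, beside 0.04 over all genes. The shares higher were thus under those of all genes at each of these thresholds, while the shares lower lay on both sides of them. These shares are a description, since no test was made, and they were not matched for transcript length. Of all genes, 2.04% were called higher with a transcript under 1500 bases and 11.9% with 3000 bases or more. The median length was 2616 bases for the enzymes and 3242 for all genes. With the length trend subtracted, 2 of the 34 were lower and 0 higher, beside 3.99% and 4.94% of genes with a length.

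Levels spanned a wide range and kept nearly the same order in both samples (Spearman's rho 0.988 over 35 genes, which share the 2 libraries). ECI1, an isomerase that handles unsaturated chains, was the most abundant in both, at 252 FPKM (240 to 264) in WT and 189 (179 to 199) in PERK-KO cells. In WT cells it was followed by ETFB, ECHS1 and HSD17B10, whose limits overlapped from one to the next, and by ETFA. In PERK-KO cells the order was ECHS1, ETFA, ETFB and HSD17B10, again with overlap between neighbours, so ETFB moved from the second to the fourth place and HSD17B10 from the fourth to the fifth. At least 100 FPKM was reached by 5 genes in WT and 4 in PERK-KO, and 3 genes lay between 1 and 3 FPKM in each. ACSL5, a synthetase of intestine and liver, was listed at 0 in WT and at 0.0188 FPKM in PERK-KO cells and is the member that was not tested. The summed FPKM of the list was 1371 in WT and 1180 in PERK-KO, which was 0.157% and 0.155% of the summed FPKM of all genes. The confidence limits lay at a median of 7.74% either side of the value in WT and 8.18% in PERK-KO cells, with a range over both samples from 3.46% to 26.1%. Rows of other genes overlap those of ACSL1, CPT2, ACADVL, ACAD11, ETFA, ECHS1, ECI2, ACAA1 and EHHADH, and because no use of strand is stated, reads of such neighbours cannot be told apart.

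**Figure D1:**
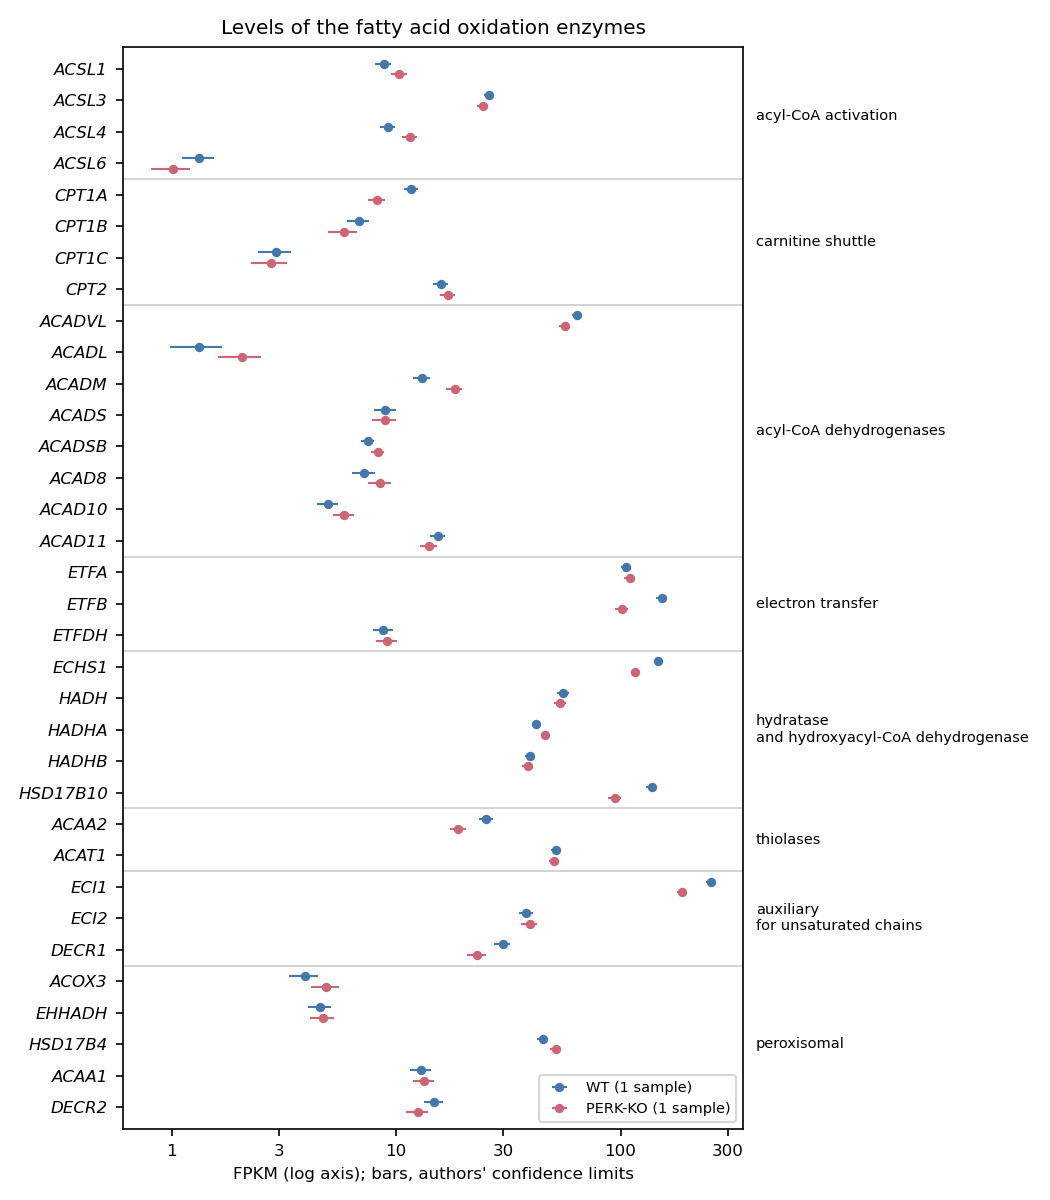
FPKM of each fatty acid oxidation enzyme in the WT and PERK-KO samples on a log axis, with bars for the deposited confidence limits. ECI1 is at the top of both samples (252 and 189 FPKM), and most pairs of points lie close together compared with the spread between genes.

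Acyl-CoA synthetases catalyse the activation step. ACSL3, which resides on the endoplasmic reticulum and lipid droplets, was the most abundant, at 26.0 FPKM (24.6 to 27.3) in WT and 24.4 (22.99 to 25.8) in PERK-KO cells, with overlapping limits. ACSL4, which prefers arachidonate, was at 9.16 (8.45 to 9.88) and 11.5 (10.6 to 12.3), and ACSL1, the form of oxidative tissues, was at 8.78 (8.08 to 9.48) and 10.3 (9.50 to 11.1). The limits of both were apart and higher in PERK-KO cells, with log2 ratios of 0.33 and 0.23, neither past 1.5-fold. ACSL6, a synthetase found mainly in brain, was low, at 1.32 (1.11 to 1.54) and 1.01 (0.805 to 1.21), and its limits overlapped. ACSL3 made up 57.4% of the summed FPKM of the family in WT and 51.6% in PERK-KO cells, ACSL4 20.3% and 24.3%, and ACSL1 19.4% and 21.9%.

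In the carnitine shuttle, CPT1 on the outer mitochondrial membrane makes acylcarnitine and CPT2 on the inner membrane converts it back. CPT1A, the form of liver and many other tissues (GRCh37, chromosome 11, 68522088 to 68609399, minus strand), was at 11.6 FPKM (10.8 to 12.5) in WT and 8.20 (7.49 to 8.90) in PERK-KO cells. It was 1.42-fold higher in WT, with a range of 1.21 to 1.66 allowed by the limits, and so was below the 1.5-fold threshold although its limits were apart. CPT2 was at 15.8 (14.5 to 17.01) and 16.99 (15.6 to 18.4) with overlapping limits, and the ratio of CPT1A to CPT2 was 0.736 (0.634 to 0.856) in WT and 0.482 (0.408 to 0.569) in PERK-KO cells. The ranges of this ratio did not overlap between the samples. CPT1B, the muscle form, was at 6.81 (6.04 to 7.58) and 5.82 (4.98 to 6.67), and CPT1C, the neuronal form, at 2.91 (2.42 to 3.41) and 2.76 (2.24 to 3.27), with overlapping limits for both. CPT1B shares its locus with a read-through transcript, CHKB-CPT1B, which was listed at essentially 0 in WT and at 0.875 (0.548 to 1.20) in PERK-KO cells, so the assignment between the 2 rows is uncertain. Their sum was 6.81 in WT and 6.70 in PERK-KO cells, with a log2 ratio of -0.02 in place of -0.22. CPT1A made up 54.4% of the summed CPT1 FPKM in WT and 48.9% in PERK-KO cells.

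The acyl-CoA dehydrogenases catalyse the first oxidation, each over a range of chain lengths. ACADVL, for very long chains, was the most abundant, at 63.8 FPKM (60.7 to 66.9) in WT and 56.4 (53.4 to 59.4) in PERK-KO cells, and ACADM, for medium chains, was at 13.04 (11.9 to 14.2) and 18.2 (16.7 to 19.7). Their limits were apart in opposite directions. ACADM (chromosome 1, 76190043 to 76229355, plus strand) was 1.396-fold higher in PERK-KO cells (range 1.18 to 1.66), and the ratio of ACADVL to ACADM was 4.89 (4.29 to 5.61) in WT and 3.10 (2.71 to 3.56) in PERK-KO cells. ACADL, for long chains, was low at 1.32 (0.976 to 1.66) and 2.05 (1.60 to 2.50), a 1.55-fold ratio whose limits overlapped. The summed FPKM of the 8 dehydrogenases was 122.1 in WT and 122.2 in PERK-KO cells, nearly equal sums of a different makeup, with ACADM at 10.7% and 14.9% of the sum. For ACADS, the short-chain enzyme, the values were 8.95 (7.93 to 9.98) and 8.87 (7.77 to 9.96). ACADSB, which acts on branched short chains, was at 7.48 (6.96 to 7.99) and 8.28 (7.71 to 8.86), and ACAD8, which acts in valine breakdown, at 7.18 (6.33 to 8.04) and 8.49 (7.497 to 9.47). ACAD10 stood at 4.99 (4.46 to 5.52) and 5.86 (5.24 to 6.48), and ACAD11 at 15.3 (14.2 to 16.5) and 14.0 (12.8 to 15.1). These 5 enzymes had overlapping limits.

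The electron carriers accept the electrons of all these dehydrogenases. ETFB (chromosome 19, 51848409 to 51869672, minus strand) was at 153 FPKM (144 to 162) in WT and 101 (94.3 to 108) in PERK-KO cells, 1.51-fold higher in WT with a range of 1.32 to 1.72, which puts the ratio at the threshold itself. It was the enzyme with the lowest log2 ratio of the list, -0.59. ETFA, its partner subunit, was at 106 (101 to 112) and 110 (104 to 116), with overlapping limits. The ratio of ETFB to ETFA was 1.44 (1.29 to 1.61) in WT and 0.921 (0.812 to 1.04) in PERK-KO cells, and the ranges did not overlap. On the log2 scale this is a difference of -0.64, of which -0.33 was left after the length median of each transcript (872 and 2289 bases) was subtracted, and ETFB was then under 1.5-fold. ETFDH, the oxidoreductase of the inner membrane, was at 8.77 (7.87 to 9.67) and 9.09 (8.11 to 10.1) with overlapping limits, and kept the same ratio to ETFA, 0.0827 and 0.0826.

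Further along the spiral, ECHS1, the short-chain hydratase, was at 147 FPKM (142 to 152) in WT and 117 (112 to 121) in PERK-KO cells, with limits apart. HSD17B10, a hydroxyacyl-CoA dehydrogenase that is also a subunit of mitochondrial RNase P, was at 138 (130 to 146) and 94.3 (87.8 to 101), 1.46-fold higher in WT (1.29 to 1.66) and so close under the threshold (chromosome X, 53458206 to 53461323, minus strand). HADH, the soluble short-chain dehydrogenase, was at 55.4 (52.0 to 58.8) and 53.8 (50.4 to 57.2) with overlap. HADHA and HADHB, the α and β subunits of the trifunctional protein, lie on opposite strands with their RefSeq starts on GRCh38.p14 307 bases apart. HADHA was at 42.1 (40.4 to 43.8) and 45.9 (43.98 to 47.8), with limits just apart, and HADHB at 39.5 (37.5 to 41.4) and 38.6 (36.5 to 40.7), with overlap. The ratio between these subunits was 1.07 (0.974 to 1.17) in WT and 1.19 (1.08 to 1.31) in PERK-KO cells, and the ranges overlapped.

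Of the thiolases, ACAA2, the mitochondrial 3-ketoacyl-CoA thiolase, was at 25.2 FPKM (23.5 to 26.9) in WT and 18.9 (17.3 to 20.5) in PERK-KO cells, with limits apart and a log2 ratio of -0.42. ACAT1, which cleaves acetoacetyl-CoA, was at 51.5 (49.2 to 53.8) and 50.6 (48.2 to 53.0). The auxiliary enzymes process double bonds. DECR1, the dienoyl-CoA reductase, was at 29.8 (27.4 to 32.2) and 22.97 (20.7 to 25.2). Its limits, like those of ECI1 given above, were apart and lower in PERK-KO cells, with log2 ratios of -0.38 and -0.42. ECI2 was at 38.0 (35.1 to 40.9) and 39.3 (36.2 to 42.4), and the ratio of ECI1 to ECI2 was 6.63 (5.86 to 7.53) in WT and 4.80 (4.21 to 5.50) in PERK-KO cells.

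In the peroxisomal set, 4 of 5 genes had a ratio above 1, as did 53.6% of all genes. The median log2 ratio was 0.05, near the 0.04 of all genes tested, beside -0.03 for the other 29. HSD17B4, the multifunctional enzyme of peroxisomes, had limits apart, unlike the other four, at 45.1 FPKM (42.5 to 47.7) in WT and 51.3 (48.4 to 54.2) in PERK-KO cells. ACOX3, an oxidase for branched chains, was at 3.91 (3.34 to 4.48) and 4.86 (4.18 to 5.53), and EHHADH, the bifunctional enzyme, at 4.58 (4.04 to 5.12) and 4.70 (4.13 to 5.27). ACAA1, the peroxisomal thiolase, was at 12.9 (11.5 to 14.2) and 13.3 (11.9 to 14.8), and DECR2, a peroxisomal dienoyl-CoA reductase, at 14.8 (13.3 to 16.2) and 12.4 (11.0 to 13.9).

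Transcript length moved with the ratio across all genes, and its part in the differences was not tested. Spearman's rho between length and log2 ratio was 0.45 over 12410 genes and 0.26 over the 34 enzymes, which all come from the same 2 libraries. Among genes with a transcript under 1500 bases, the median log2 ratio was -0.29 over all 1916 genes and -0.44 over the 4 enzymes there, which include ETFB (872 bases) and HSD17B10 (954 bases). For transcripts of 3000 bases or more the medians were 0.18 over 6722 genes and 0.04 over 10 enzymes. Subtracting the running median of the genes nearest in length left log2 differences of -0.25 for ETFB, -0.23 for HSD17B10 and -0.24 for ECI1. For ECHS1 (1277 bases), -0.08 of -0.33 was left. The differences left were -0.68 for CPT1A, -0.45 for ACAA2, -0.38 for DECR1 and 0.52 for ACADM. On that scale CPT1A and ACSL6 (-0.63) were past 1.5-fold lower and ETFB was not, although the limits of ACSL6 as deposited overlapped between the samples. Within the length-adjusted values, 17 enzymes lay below and 17 above 0. The levels of the enzymes also moved with the ratio (rho -0.40 over 34 enzymes, -0.18 over all genes).

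A second list held 51 genes of fatty acid handling outside the enzymes above, such as uptake, thioesterases, malonyl-CoA metabolism and regulators, of which 44 were tested. In these, 3 were called lower and 3 higher, or 6.82% each beside 5.37% and 7.87% of all genes, with a median log2 ratio of -0.05. Those lower were SLC27A5, a bile acid and fatty acid CoA ligase (2.22 FPKM in WT and 0.993 in PERK-KO cells), DBI, the acyl-CoA binding protein (147 and 89.9), and SLC27A3, a very-long-chain acyl-CoA synthetase (5.67 and 3.73). Those higher were ACBD3, a Golgi acyl-CoA binding domain protein (20.2 and 35.8), PPARGC1B, a coactivator of mitochondrial genes (1.002 and 1.63), and ACACA, which makes malonyl-CoA (8.54 and 13.5). After the running length median was subtracted, SLC27A5 and ACBD3 kept their calls, and DBI (-0.29), SLC27A3 (-0.56), PPARGC1B (0.37) and ACACA (0.34) were under 1.5-fold. On that scale 2 others, named here after their values were seen, were called lower, the thioesterase ACOT9 (-0.70) and the racemase AMACR. This made 3 lower and 1 higher of the 43 related genes with a length. Over all 12410 genes with a length, 3.99% were lower and 4.94% higher. All 6 tested thioesterases, which release the acyl chain from CoA, had a ratio below 1 (median log2 ratio -0.26, 3 with limits apart), as did 46.4% of all genes, and 4 of the 6 were below 0 after the length median was subtracted. The 3 malonyl-CoA genes had a ratio above 1 (median 0.21), as did 53.6% of all genes, but their transcripts are long, and with the length median subtracted their median was -0.10 and ACACA alone lay above 0. Among the regulators, PPARA was at 2.23 and 2.71 FPKM and ESRRA at 23.9 and 24.6, with overlapping limits for both, and PPARGC1A was below the filter at 0.234 and 0.380. SLC25A20, the carnitine-acylcarnitine carrier, was at 3.11 and 3.25 with overlap.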

How the data were processed

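RNA of 2 samples, 1 per genotype, was analysed. Per the submitters' processing notes, reads were processed with TopHat2 2.0.13 and Cufflinks 2.2.1 on hg19. The authors deposited an FPKM value for each gene and the limits of its confidence interval, without counts. Depth was not given: the widths of the limits gave whole fragment numbers (tolerance 0.02) in 1133 genes, by which the PERK-KO depth was 87.59% of WT. Python 3.11.15, numpy 2.4.6, pandas 2.3.3, scipy 1.17.1 and matplotlib 3.10.9 were used. Rows off the main chromosomes (1305 of 25277) were left out. Genes at 1 FPKM or more in at least one sample were compared as PERK-KO over WT without a pseudocount, and called past 1.5-fold with limits apart. A range of a ratio pairs the opposite limits of its 2 values. Transcript length and GC content came from GENCODE canonical transcripts on GRCh37, matched by symbol for 12423 genes tested, and promoters from RefSeq on GRCh38.p14. Every listed enzyme is named. Related genes are named when called, and PPARA, PPARGC1A, ESRRA and SLC25A20 always; some other items are not reported here. The enzymes, lists and tests were chosen with earlier results of these data known. The calls were tested on simulated data with only the noise of the deposited limits, which cannot show how they hold between cultures or clones. Alternatives were other filters, pseudocounts, scalings, thresholds, overlap of limits, same-name sums, read-through rows and length.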

Additional observations from a re-analysis of the deposited data

How the results depend on the processing

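ETFB remained the 1 enzyme called lower without a filter, at 5 FPKM or more, with pseudocounts of 0.1 and 1, with centring on the median or the 75th percentile, with rows of one name summed, and with read-through rows added, an alternative chosen after seeing the data. A threshold of 2-fold left 0 enzymes lower (156 genes lower and 307 higher), and 1.3-fold gave 5 lower and 1 higher (1599 and 2334 genes). Subtracting the running length median gave 2 enzymes lower, CPT1A and ACSL6, with 495 genes lower and 613 higher of the 12410 with a length. The same 12410 genes without the subtraction, also chosen after seeing the data, gave 633 and 1003 and kept ETFB, beside 778 and 1141 of all 14500. Allowing overlapping limits gave 1 enzyme higher, ACADL, and 1 lower, ETFB, beside 1461 genes higher and 1088 lower of all 14500. At 5 FPKM or more, with fewer genes tested (10306), 576 genes were lower and 706 higher, and a pseudocount of 1, which shrinks the ratios of low genes, gave 604 and 740. Centring on the median, a shift of 0.04, gave 935 genes lower and 982 higher. No paired analysis was possible because each genotype had 1 sample, and for the same reason no replicate could be left out. The confidence limits cover counting and assignment within a library only, so no difference between genotypes can be set against the spread between cultures or clones.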
